A study of Mus musculus with 4 samples.

Results

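The step from 12 hours to 2.5 days of tamoxifen was read from 2 arrays of gastric corpus epithelium, as the log2 value at 2.5 days minus the log2 value at 12 hours. Tamoxifen, a selective estrogen receptor modulator, is given to mice at high dose to injure the acid-secreting glands of the stomach, and the treatment was meant to bring about spasmolytic polypeptide-expressing metaplasia (SPEM), a state in which glands of the corpus take on transcripts of mucous neck cells. The animals were wild type and 6 weeks old, and the strains used were FVB/N, BALB/c and C57BL/6. Tamoxifen was injected into the peritoneum at 5 mg per 20 g of body weight in 10% ethanol and 90% sunflower oil. The series held 4 arrays: tamoxifen after 12 hours, tamoxifen after 2.5 days, tamoxifen after 4.5 days, and the same solvent without tamoxifen (vehicle) at 2.5 days. Every array measured RNA pooled from 3 mice. The labels give injection over differing numbers of days, and do not say which strain, sex or number of injection days belongs to which array. The arrays of the step may therefore differ in doses as well as in time, which cannot be told apart. No array of vehicle enters the step. The vehicle and 4.5-day levels are given beside it.

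With 1 pooled array per group the spread between mice is unknown, so no test was possible and no difference below has a p-value. Values are log2 on the scale of the array method RMA, so a difference of 1 is 2-fold, and levels of different genes cannot be compared with each other. Probe sets with exactly 1 gene symbol gave 18193 genes, each read from its probe set of highest average over the series. Another reading given below takes the probe set of median absolute difference. With an even number of probe sets it takes the lower of the middle pair. For a gene with only a pair this is the smaller difference, so that reading leans toward smaller values by construction. A gene counted as expressed if its brighter value in the step reached the median of all probe sets on the same array, which was 5.34 at 12 hours and 5.3 at 2.5 days. That left 12205 expressed genes. From these, 113 genes of the exocrine pancreas, of the Reg lectin family and of squamous epithelium were set apart, and 12092 remained. Technical error was gauged from control RNAs: 18 hybridisation controls differed in the step by -0.17 on average with an SD of 0.14, and 19 poly-A controls by -0.03 with an SD of 0.16. Neither gauge holds the differences between mice.

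The corpus gland renews itself from dividing cells of the isthmus, which give rise to surface mucous cells above and to mucous neck and acid-secreting parietal cells below, while pepsinogen-secreting chief cells lie at the base. After loss of parietal cells, cells of the isthmus and base are known to enter the cell cycle, and chief cells to lower their zymogens and take up mucous neck transcripts. Genes of DNA replication are largely governed by E2F factors and those of mitosis by the DREAM and MMB-FOXM1 complexes, which bind short promoter elements called cell cycle homology regions (CHR). In whole tissue RNA, fewer cells of a type and less RNA per cell cannot be told apart, and this holds for every gene group below.

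Outside the genes set apart, 263 expressed genes were higher by 2-fold or more at 2.5 days than at 12 hours, 2.17% of 12092, and 53 were lower by as much, 0.438%. These are the shares to set beside each count of list members past 2-fold in the step. The median difference over these genes was 0.06 with a robust SD of 0.29. Genes of mitosis made up the biggest group among the lists examined: 50 of the 263 higher genes belonged to a list of 54 mitosis and spindle genes. A further 12 came from a list of 43 DNA replication genes, so both lists held 23.6% of the higher genes. Centring the arrays on the median of genes expressed on all 4 arrays took out a shift of 0.12 and gave 213 higher and 76 lower genes, so that 73.7% of the genes past 2-fold were higher, against 83.2% as measured. Centring on the hybridisation controls took out -0.17 and gave 387 higher and 34 lower, or 91.9% higher. Genes lay close to the threshold on both sides: among the higher genes Vcam1, an adhesion molecule, was just inside and Aspa, an aspartoacylase, just outside, and among the lower ones Gadd45b, a stress gene, was just inside at -1.01.

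**Figure D1:**
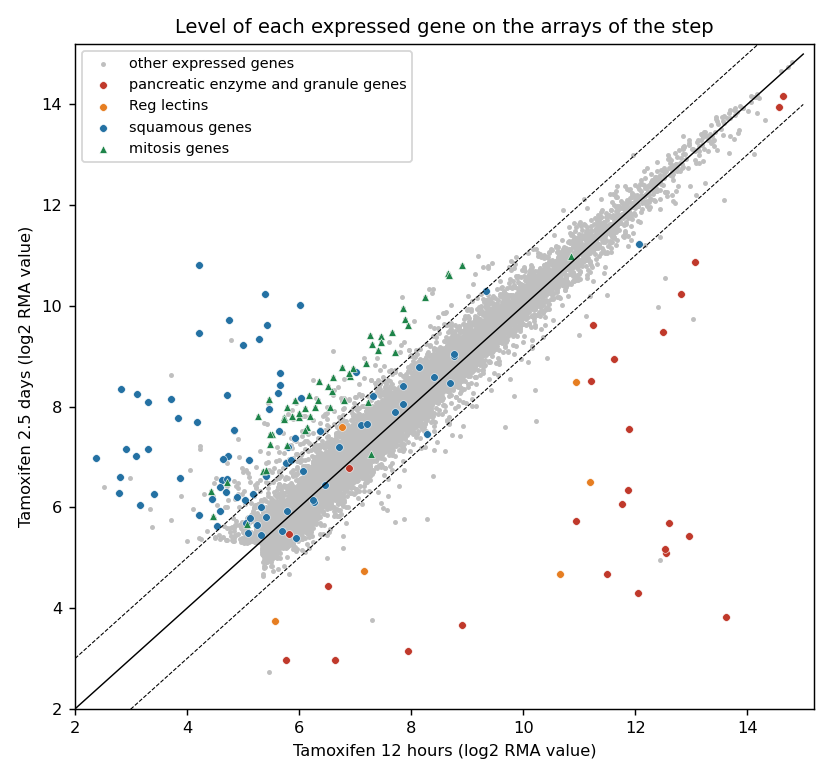
Level of each expressed gene at 12 hours (horizontal axis, log2 RMA value) and at 2.5 days (vertical axis, log2 RMA value), 1 pooled array each. Grey points are genes outside the lists, red, orange and blue points the pancreatic, Reg and squamous genes set apart, green triangles mitosis genes, the solid line equality and the dashed lines 2-fold. Pancreatic genes lie far below the line, most squamous and mitosis genes above it.

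The genes set apart had the widest differences of the step. Pancreatic digestive enzyme and granule genes were lower at 2.5 days: of 26 expressed, 22 were lower by 2-fold or more and none higher by as much. Cela2a, a pancreatic elastase, stood at 13.62 at 12 hours, against 4.29 in vehicle, 3.81 at 2.5 days and 3.64 at 4.5 days, a step of -9.80. The 12-hour array alone was high. The procarboxypeptidases Cpa1 and Cpb1 differed by -7.75 and -7.45, the chymotrypsinogens Ctrb1 and Ctrl by -7.53 and -7.35, and the trypsinogen Prss2 by -6.90. In 21 of the 26 the 12-hour array was the highest of the 4. Ptf1a, the transcription factor that defines acinar cells, read 6.49, 6.89, 6.79 and 6.24 in vehicle and at 12 hours, 2.5 and 4.5 days, within 1 log2 unit on all arrays. Of the endocrine pancreas 5 genes were expressed and none was past 2-fold, with a median of -0.10, and insulin (Ins2) differed by -0.16. Ins2 read 5.71, 5.82, 5.66 and 5.88 in the same order of arrays, not far above the array medians. The phospholipase Pla2g1b and the colipase Clps were near the top of the scale at 12 hours and lower by 0.63 and 0.49, with 14.61 and 14.67 in vehicle, so these genes were abundant without tamoxifen too. Trypsinogens, elastases and chymotrypsinogens are families with close copies, between which probe sets may not tell.

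Reg genes encode small secreted lectins found in the pancreas and in injured gut. Of 6 expressed members 5 were lower at 2.5 days by 2-fold or more. Reg2 differed by -5.99 and Reg1 by -4.69. Reg3b read 3.43 in vehicle, 10.94 at 12 hours, 8.49 at 2.5 days and 6.08 at 4.5 days, a step of -2.45, and so lay above vehicle on all 3 tamoxifen arrays. Reg3d differed by -2.42 and Reg3a by -1.82. Reg3g did not share this order: its levels were 4.86, 6.76, 7.60 and 8.86, higher by 0.84 in the step. Members of the Reg3 group are similar in sequence, and their probe sets may share signal.

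Squamous genes went the other way. The forestomach of the mouse is lined by cornifying squamous epithelium, which borders the corpus, and 52 of the 81 expressed genes of the list were higher by 2-fold or more, with none lower by as much. For 69 the 12-hour array was the lowest of the 4. Krtdap, a secreted protein of differentiating keratinocytes, read 11.36 in vehicle, 4.21 at 12 hours, 10.82 at 2.5 days and 10.99 at 4.5 days, a step of 6.61. The 12-hour array alone was low. The keratins of stratified epithelium Krt13, Krt6b, Krt4 and Krt1 differed by 5.25, 5.13, 4.99 and 4.86, and repetin (Rptn), a protein of the cornified layer, by 5.54 at its brightest probe set but by -0.27 where the probe set of median absolute difference was read. Krt5 and Krt14, keratins of the dividing basal layer, read 7.45 and 7.66 in vehicle, 6.38 and 5.62 at 12 hours, and 7.52 and 8.26 at 2.5 days. Sprr1a, a cornified envelope protein also known from injured epithelia, was an exception at -0.84. The share of pancreatic or forestomach tissue in the pools was not measured, and its part in the other differences was not tested. Basal squamous cells divide, and whether their low level at 12 hours enters the mitosis genes was not tested. A gene with a predicted name had the highest difference outside the lists set apart, 4.92, with the squamous order of levels. Of the 15 highest genes with a proper name, 4 had that order too, with vehicle close to both 2.5 and 4.5 days. Mt4, a metallothionein of stratified epithelia, read 9.77, 4.79, 9.33 and 9.78 in vehicle and at 12 hours, 2.5 and 4.5 days. Csta1, a cystatin, differed by 3.89, Them5, a thioesterase, by 3.60, and Gjb2, a gap junction protein, by 2.66. At the probe set of median absolute difference Them5 was 1.13 and Krt13 2.67. A further reading left out squamous genes such as these. It also left out genes taken as pancreatic, such as Nupr1 and Klk1b5, though Nupr1 read 11.03 in vehicle, where Cela2a read 4.29. This choice, made after the values were seen, gave 258 higher and 50 lower genes.

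Mitosis and spindle genes were higher at 2.5 days nearly without exception. All 54 measured members were expressed, 50 were higher by 2-fold or more and none lower by as much, with a median difference of 1.82 against 0.06 over all expressed genes outside the lists set apart. List medians here are over all measured members, and counts over the expressed ones. Reading the mean of all probe sets gave a median of 1.42 and 40 members past 2-fold, and reading the probe set of median absolute difference 1.44 and 34 members. The kinase Bub1, part of the spindle checkpoint, read 6.45 in vehicle, 5.47 at 12 hours, 8.16 at 2.5 days and 8.35 at 4.5 days, a step of 2.69. Aurkb, the kinase of the chromosomal passenger complex, read 6.14, 5.26, 7.81 and 7.85 in the same order, a step of 2.55. The 12-hour value was the lowest of the 4 for both kinases. Mki67, the proliferation antigen, read 9.62, 8.91, 10.81 and 10.85, a step of 1.89. Cdk1, the kinase that drives entry into mitosis, read 7.67, 7.46, 9.40 and 9.35, a step of 1.94. Top2a, a topoisomerase that untangles chromosomes, differed by 2.11, and its other probe set above the array median by 0.89. In all 3 of these genes the arrays at 2.5 and 4.5 days lay close together, above vehicle and 12 hours.

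The order of the arrays was shared by most of the list. The 12-hour array was the lowest of the 4 for 49 of 54 mitosis genes, against 29.0% of all 12092 genes, and it was the highest for none, against 18.8%. Vehicle was above 12 hours for 50 of the 54, with a median of 0.46, and 2.5 days was above vehicle for 52. The step thus starts below vehicle and ends above it for most of the list. Squamous genes were also lowest at 12 hours in 69 of 81 cases, and 22 of 81 were above vehicle at 2.5 days. Other genes of chromosome segregation outside the list stood among the 15 highest named differences. Depdc1a, a mitotic regulator, read 4.91, 4.24, 7.15 and 7.17, a step of 2.91. Esco2, the cohesin acetyltransferase of S phase, differed by 2.62, Ska1, a kinetochore protein, by 2.43 and Cenpp, a centromere protein, by 2.33. Ska1 was under 2-fold with other readings of its probe sets, 0.62 at the one of median absolute difference and 0.90 as their mean. At the probe set of median absolute difference Bub1 was 1.19 and Esco2 1.60, and as the mean of its probe sets Cenpp was 1.40, all still past 2-fold. Exceptions within the list were few: Foxm1, the transcription factor of mitotic genes, differed by -0.23 at its brightest probe set, and its 3 probe sets above the array median ran from -0.23 to 0.92. Pttg1, securin, differed by 0.14, and the phosphatases Cdc25c and Cdc25b by 0.60 and 0.88. Tpx2, a spindle assembly factor, was 1.80 at its brightest probe set, but its 4 probe sets ran from -1.24 to 2.62, and it was the only expressed gene with probe sets past 2-fold in both directions. Aurka, the kinase of the spindle poles, differed by 2.21 at its brightest probe set, by -0.35 at a dim one and by 0.93 as their mean.

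**Figure D2:**
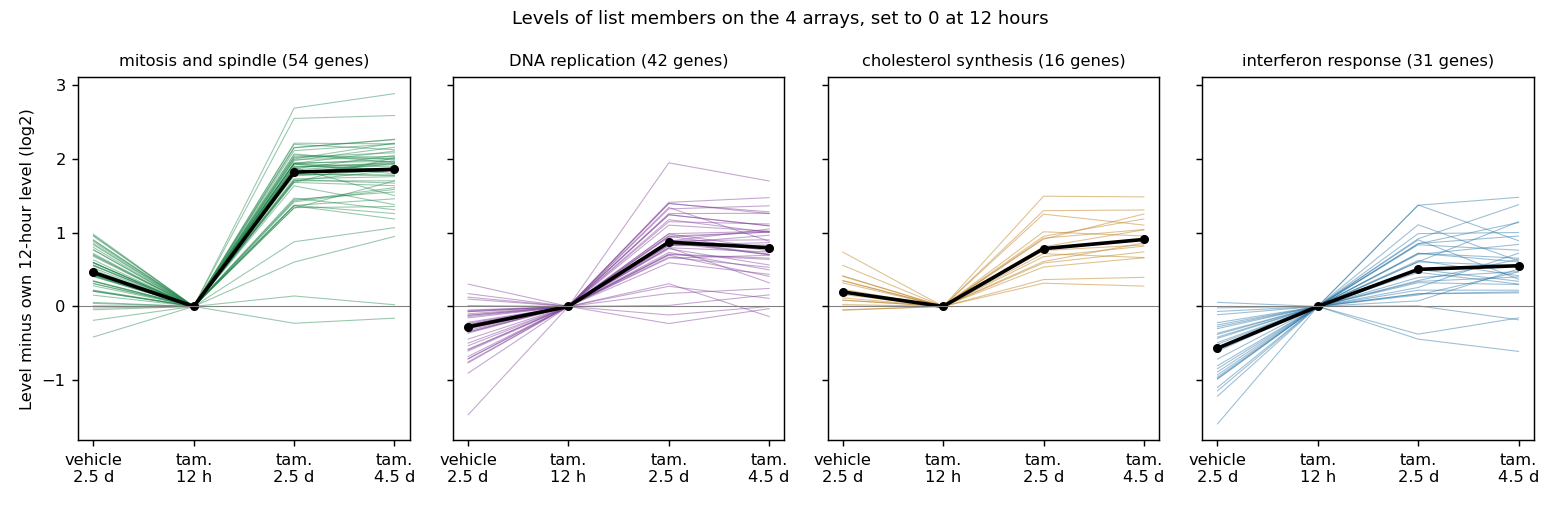
Levels of the expressed members of each list on the 4 arrays (horizontal axis), as the log2 difference from the gene's own 12-hour level (vertical axis), so that every curve passes through 0 at 12 hours. Thin lines are genes and thick lines the list median, with 1 pooled array per time. Mitosis genes dip at 12 hours below vehicle, with a median of 0.46 in vehicle, and stand at medians of 1.82 and 1.86 at 2.5 and 4.5 days.

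DNA replication genes were also higher, by less and with another starting point. Of 43 measured members 42 were expressed, 12 were higher by 2-fold or more and none lower by as much, with a median of 0.86, and 40 of the 42 lay above 0, as did 59.3% of all 12092 genes. The count was 5 when the probe set of median absolute difference was read and 25 after centring on the hybridisation controls. Rrm2, a subunit of ribonucleotide reductase, read 8.06 in vehicle, 8.38 at 12 hours, 10.33 at 2.5 days and 10.08 at 4.5 days, a step of 1.95. The minichromosome maintenance gene Mcm5, part of the replicative helicase, read 7.93, 8.61, 9.85 and 9.70, a step of 1.24, with 0.86 at another of its probe sets. Both were already above vehicle at 12 hours. Dut, which clears dUTP, differed by 1.41, Clspn, a checkpoint adaptor, by 1.40 and Tk1, thymidine kinase, by 1.39, though Clspn read -0.088 and Dut 0.89 at the probe set of median absolute difference. Pcna, the sliding clamp, read 10.46, 10.90, 11.64 and 11.40. Of the 42 expressed replication genes 4 had the 12-hour array as the lowest, and vehicle was below 12 hours for 37, with a median of -0.28. In the mitosis list vehicle was below 12 hours for 4 of 54. The factor E2f1 itself differed by -0.12 and the origin subunit Orc1 by -0.23.

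Promoter sequences were set beside these lists to show which letters the members share. They come from RefSeq on build GRCm38.p6 and cover 250 bases before to 50 after the annotated start, 300 in all. The table gave a promoter for 9759 expressed genes outside the lists set apart, among them 45 mitosis, 34 replication and 22 interferon genes. Motifs were searched on both strands. The CHR was searched as TTTGAA or TTTAAA, the second of which is its own reverse complement. E2F sites were searched as TTTCCCGC, TTTGGCGC, TTTCGCGC or TTTGGCGG, which can overlap one another, and the core of the interferon-stimulated response element (ISRE) as GAAANNGAA. A gene counted as holding a motif if any of its promoters did. The 9759 genes had 12511 promoters, so genes with several starts had more chances. Of a gene with several, the first promoter that held the motif is printed below. A CHR was present for 34 of 45 mitosis genes, 75.6%, against 22.2% of all 9759 genes, and for 26.5% of the replication genes. E2F letters were present for 17 of 34 replication genes, against 4.89% of all and 6.67% of the mitosis genes. CCAAT, the box that often accompanies a CHR, was present for 73.3% of mitosis genes and 42.2% of all. Within the lists, mitosis genes with a CHR had a median of 1.88 and those without 1.79, and replication genes with E2F letters 0.89 and those without 0.86. A match is a description of letters, not a site shown to be bound.

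Mitosis promoters of 3 kinases and regulators of division with a CHR past the annotated start are shown, the CHR in capitals, and they do not stand for the list: in Kif2c, a spindle motor, the matches begin at -234 and -103 from the start. Aurka lies at chr2:172370521-172370820 on the minus strand, Plk1, the polo kinase that read 6.36 at 12 hours and 8.51 at 2.5 days, at chr7:122159185-122159484 on the plus strand, and Ect2, the exchange factor that places the cleavage furrow, with 7.27 and 9.43, at chr3:27153829-27154128 on the minus strand. Each sequence is written 5′ to 3′ in the direction of the gene.
Aurka: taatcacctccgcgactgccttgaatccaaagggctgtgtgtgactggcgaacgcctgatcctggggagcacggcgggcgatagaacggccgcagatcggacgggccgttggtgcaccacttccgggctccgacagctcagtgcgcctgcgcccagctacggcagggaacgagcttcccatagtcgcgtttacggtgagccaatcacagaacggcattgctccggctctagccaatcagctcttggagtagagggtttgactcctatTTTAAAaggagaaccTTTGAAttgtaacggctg
Plk1: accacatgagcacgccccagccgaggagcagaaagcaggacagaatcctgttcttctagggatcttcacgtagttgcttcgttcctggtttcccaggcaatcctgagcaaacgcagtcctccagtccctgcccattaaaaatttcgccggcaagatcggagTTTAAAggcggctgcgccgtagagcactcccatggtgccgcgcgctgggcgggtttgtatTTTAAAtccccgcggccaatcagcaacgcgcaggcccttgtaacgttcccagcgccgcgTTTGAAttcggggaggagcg
Ect2: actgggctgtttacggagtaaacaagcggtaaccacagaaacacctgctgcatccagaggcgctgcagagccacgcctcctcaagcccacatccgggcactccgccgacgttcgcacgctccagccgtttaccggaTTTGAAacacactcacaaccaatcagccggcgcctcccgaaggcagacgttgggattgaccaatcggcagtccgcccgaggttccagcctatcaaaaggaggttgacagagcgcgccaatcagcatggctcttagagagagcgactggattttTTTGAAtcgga
In Plk1 the last CHR begins 31 bases past the start, in Aurka 33 and in Ect2 40.

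Replication promoters are shown by Clspn, at chr4:126556730-126557029 on the plus strand, and Mcm5, at chr8:75109259-75109558 on the plus strand, with E2F letters in capitals. In Mcm5 a pair of matches on opposite strands overlaps in a single run.
Clspn: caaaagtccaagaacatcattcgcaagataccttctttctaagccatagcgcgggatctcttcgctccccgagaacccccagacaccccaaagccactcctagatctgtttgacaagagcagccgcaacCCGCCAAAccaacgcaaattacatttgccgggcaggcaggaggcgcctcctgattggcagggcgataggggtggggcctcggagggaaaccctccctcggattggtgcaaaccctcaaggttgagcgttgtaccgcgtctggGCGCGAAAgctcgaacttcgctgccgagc
Mcm5: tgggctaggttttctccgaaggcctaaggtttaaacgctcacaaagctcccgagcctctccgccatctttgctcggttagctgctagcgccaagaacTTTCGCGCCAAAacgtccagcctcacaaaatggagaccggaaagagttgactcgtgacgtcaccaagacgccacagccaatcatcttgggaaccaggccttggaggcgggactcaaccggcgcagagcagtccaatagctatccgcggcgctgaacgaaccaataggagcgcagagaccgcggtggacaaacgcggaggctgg
Of the 45 mitosis genes 3 had a promoter with such letters.

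Cholesterol synthesis genes were higher at 2.5 days. All 16 measured genes of the pathway lay above 0, as did 59.3% of all 12092 genes. By 2-fold or more 4 were higher, against 2.17% of all 12092 genes, and the median was 0.78. Idi1, the isopentenyl isomerase, read 9.63 in vehicle, 9.28 at 12 hours, 10.77 at 2.5 days and 10.76 at 4.5 days, a step of 1.49. Cyp51, a sterol demethylase, differed by 1.30, Lss, lanosterol synthase, by 1.25 and Hsd17b7, a sterol reductase, by 1.01. With the mean of all probe sets Lss and Hsd17b7 were under 2-fold, at 0.87 and 0.47. For 14 of the 16 the 12-hour array was the lowest, against 29.0% of all genes. Srebf2, the transcription factor of the pathway, differed by 0.36.

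Ribosome biogenesis genes were higher by a small and even amount. Of 35 genes, 34 lay above 0, with a median of 0.52, and none was past 2-fold in either direction. Above 0 lay 59.3% of all 12092 genes, the share to set beside each such count here. Ncl, nucleolin, read 10.51, 11.14, 11.95 and 12.10 in vehicle and at 12 hours, 2.5 and 4.5 days, a step of 0.81. The snoRNP protein Nhp2 differed by 0.75, and the nucleolar proteins Nolc1 and Wdr12 by 0.65 and 0.64. Vehicle was below 12 hours for 34 of the 35, and below 2.5 days for all 35. Aminoacyl tRNA synthetases had a median of 0.35 with 17 of 18 above 0, and proteasome subunits 0.23 with 24 of 25 above 0, again with no member past 2-fold in either list. All 3 medians stayed above 0 under every setting tried, the lowest being 0.38 for ribosome biogenesis, 0.18 for the synthetases and 0.11 for the proteasome.

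Interferon response genes lay above 0 in 29 of 31 expressed cases, against 59.3% of all 12092 genes. Past 2-fold upward were 3 of them, against 2.17% of all 12092 genes, and the list median was 0.50. Ifit3, an antiviral effector, read 5.89 in vehicle, 6.49 at 12 hours, 7.87 at 2.5 days and 7.39 at 4.5 days, a step of 1.38. The GTPase Gbp3 differed by 1.37, the transcription factor Irf7 by 1.11 and Oasl2, a relative of the oligoadenylate synthetases, by 0.99. Vehicle was the lowest array for these 4, and it was below 12 hours for 30 of the 31. Cxcl10, a chemokine of the same response, differed by -0.44 and Stat2 by -0.38. The ISRE core was present for 13 of the 22 genes of the list with a promoter, 59.1%, against 8.28% of all. Genes with it and without it had medians of 0.60 and 0.61. Ifit3, at chr19:34583279-34583578 on the plus strand, holds 3 matches, in capitals, and Gbp3, at chr3:142559794-142560093 on the plus strand, a pair that overlaps by 3 bases.
Ifit3: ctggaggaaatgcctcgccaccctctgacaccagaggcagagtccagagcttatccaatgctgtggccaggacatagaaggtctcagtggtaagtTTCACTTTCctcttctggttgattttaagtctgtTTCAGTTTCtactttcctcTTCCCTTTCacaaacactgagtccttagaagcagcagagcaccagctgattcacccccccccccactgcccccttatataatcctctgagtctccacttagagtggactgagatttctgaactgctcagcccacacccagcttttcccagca
Gbp3: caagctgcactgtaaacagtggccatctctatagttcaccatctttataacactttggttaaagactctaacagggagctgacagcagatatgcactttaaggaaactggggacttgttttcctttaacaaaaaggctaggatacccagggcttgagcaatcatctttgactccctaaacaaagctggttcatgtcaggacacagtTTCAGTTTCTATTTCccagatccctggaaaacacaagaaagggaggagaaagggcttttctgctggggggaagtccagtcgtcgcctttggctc
The Oas, Ifit and Gbp genes are families of close copies, between which probe sets may share signal.

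**Figure D3:**
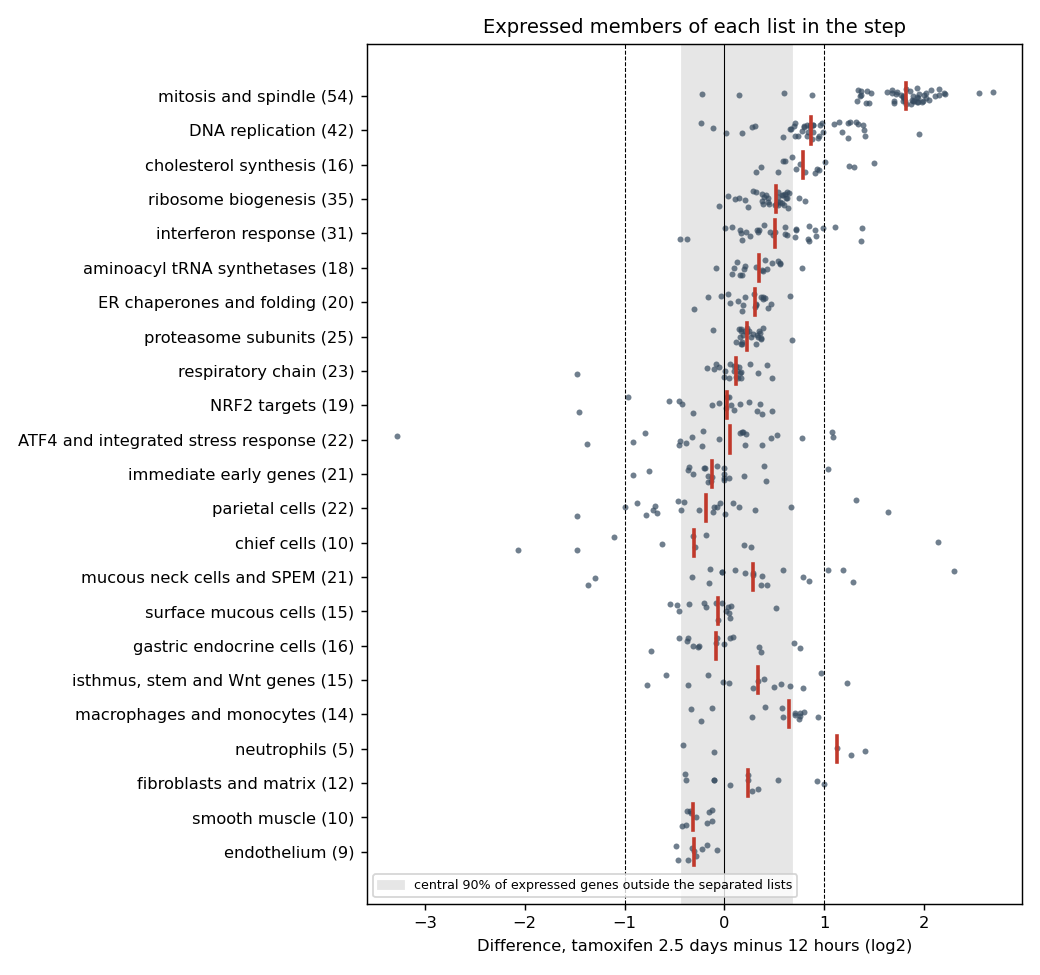
Difference between 2.5 days and 12 hours (horizontal axis, log2) for the expressed members of each list, with the number of members in parentheses. Points are genes, red bars the median of the expressed members, dashed lines 2-fold, and the grey band the central 90% of expressed genes outside the lists set apart, from -0.42 to 0.68. The mitosis list lies almost wholly to the right of the 2-fold line, with 50 of 54 genes past it.

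Lists of stress genes did not share a common direction in the step, and the lower genes named here were chosen by the size of that same difference. Nupr1, a small stress-induced chromatin protein, had the largest negative difference among the named genes outside the lists set apart: 11.03 in vehicle, 13.03 at 12 hours, 9.75 at 2.5 days and 9.18 at 4.5 days, a step of -3.28. Nupr1 is also abundant in the pancreas, whose enzymes were high on the same array. Hmox1, heme oxygenase, read 6.96, 8.87, 7.41 and 7.28, a step of -1.46, and the autophagy receptor Sqstm1 read 9.70, 11.12, 9.80 and 9.74, a step of -1.32. For both the 12-hour array alone was high, though Sqstm1 was under 2-fold with other readings of its probe sets, -0.49 and -0.90. Gclc, the rate-limiting enzyme of glutathione synthesis, differed by -0.96, and Chac1, which degrades glutathione, by -1.37. In the list of ATF4 targets Psat1 and Psph, which make serine, were higher by 1.09 and 1.08, and Psat1 was above vehicle at 12 hours already. Hence 2 of 22 expressed ATF4 targets were past 2-fold in each direction, against 2.17% upward and 0.438% downward of all 12092 genes. The 12-hour array was the highest for 10 of the 22, against 18.8% of all 12092 genes. Of 19 NRF2 targets 1 was lower by 2-fold or more and none higher. The medians, -0.14 for ATF4 and 0.03 for NRF2, had both signs among the settings tried, so no direction is given for either list. Among 21 immediate early genes 5 lay above 0, and the median of -0.12 took both signs among the settings tried. Atf3 and Jun differed by -0.91 and -0.75, and Nr4a2 by 1.03 at its brightest probe set, with 5 probe sets from -0.60 to 1.03. Chaperones of the endoplasmic reticulum had a median of 0.31, above 0 under every setting tried, and none was past 2-fold. Of 20 genes 17 were above 0, against 59.3% of all 12092 genes. The cochaperone Creld2 read 8.80, 8.17, 8.82 and 8.75. The 12-hour array was the lowest for 16 of the 20, against 29.0% of all genes.

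Parietal cell genes were mixed in the step. Of 22 expressed, 2 were past 2-fold upward and 1 downward, against 2.17% and 0.438% of all 12092 genes. The median was -0.15 over 25 measured, and its sign turned with the centring. Kcne2, the subunit of the apical potassium channel, read 10.90 in vehicle, 8.05 at 12 hours, 9.69 at 2.5 days and 9.76 at 4.5 days, a step of 1.64. Esrrg, an orphan nuclear receptor of parietal cells, read 10.39, 8.71, 10.03 and 9.64, a step of 1.32. Both were lowest at 12 hours, with no array of tamoxifen reaching vehicle. Esrrg was under 2-fold with other readings of its probe sets, 0.54 and 0.51. The proton pump subunits Atp4a and Atp4b, by contrast, read 13.38 and 14.19 in vehicle, 12.71 and 13.24 at 12 hours, 12.04 and 12.45 at 2.5 days, and 12.28 and 12.88 at 4.5 days. They were lower by 0.68 and 0.79 in the step, within 2-fold. Cox7a1, a cytochrome oxidase subunit, differed by -1.47. The anion exchanger Slc26a7 was just short of 2-fold, with 8.56, 6.18, 5.19 and 4.19 on the 4 arrays. Vehicle was above 12 hours for 21 of the 22 expressed parietal genes, and 2.5 days was above vehicle for 1 of 22. Set against each gene's own 12-hour level, the median difference of these 22 genes was 1.20 in vehicle and -0.18 at 2.5 days.

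Chief cell genes held the zymogens, which were lower at 2.5 days. Pga5, a pepsinogen, read 9.88 in vehicle, 9.67 at 12 hours, 7.60 at 2.5 days and 6.48 at 4.5 days, a step of -2.07. Cblif, gastric intrinsic factor, read 13.78, 13.58, 12.10 and 11.39, a step of -1.48, and Pgc, progastricsin, 14.28, 14.12, 13.01 and 11.84, a step of -1.11. In all 3 the 12-hour level lay close to vehicle, and the levels at 2.5 and 4.5 days lay below both. Bhlha15, the transcription factor of secretory cell maturation, had another order: 9.15, 7.19, 7.39 and 7.20, with a step of 0.20, so that its low level was reached by 12 hours. Of 10 expressed chief cell genes 3 were lower by 2-fold or more and 1 higher, against 0.438% and 2.17% of all 12092 genes. The higher gene was Tnfrsf19, a receptor found on gastric base cells, which read 7.04, 5.94, 8.08 and 8.45. Tnfrsf19 was 0.81 at the probe set of median absolute difference, under 2-fold. The list median was -0.27. Some of these transcripts were near the top of the scale, where RMA compresses differences.

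Mucous neck and SPEM genes were split between those higher by 2.5 days and those not. Of 21 expressed, 4 were past 2-fold upward and 2 downward, against 2.17% and 0.438% of all 12092 genes. The median was 0.29. Cftr, the chloride channel, read 6.52 in vehicle, 5.38 at 12 hours, 7.67 at 2.5 days and 8.90 at 4.5 days, a step of 2.30 that was 0.22 at the probe set of median absolute difference and 1.26 as the mean of its probe sets. Aqp5, a water channel, read 8.18, 7.45, 8.74 and 9.79, a step of 1.29, and Gpx2, a glutathione peroxidase of gut epithelium, 10.51, 10.72, 11.90 and 12.65, a step of 1.18. These 3 continued upward to 4.5 days. Cd44, an adhesion receptor used as a SPEM marker, differed by 0.59, and Tff2, the spasmolytic polypeptide itself, by -0.16 at a level near the top of the scale. Olfm4, a secreted glycoprotein of progenitors, read 6.86, 7.79, 6.42 and 8.99, a step of -1.36, and Chil4, a chitinase-like lectin, differed by -1.30. Both were higher at 12 hours than at 2.5 days. Surface mucous cells, in contrast, had no member of 15 past 2-fold, with differences from -0.55 to 0.52: Gkn1 and Gkn2, gastrokines, differed by 0.07 and 0.04, Tff1 by 0.01 and the mucin Muc5ac by -0.46. Of 16 expressed endocrine genes none was past 2-fold: the hormones Ghrl and Sst differed by -0.46 and -0.74, and Hdc, which makes histamine, by 0.76.

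Ligands of the EGF family differed in both directions, and the median of the list, 0.12, took both signs among the settings tried. Ereg, an EGF receptor ligand, read 7.11, 6.61, 9.11 and 9.92 in vehicle and at 12 hours, 2.5 and 4.5 days, a step of 2.50. Nrg1, another ligand of the family, read 4.97, 5.22, 6.45 and 6.76, a step of 1.23. Egf itself went the other way, 7.35, 5.82, 4.68 and 4.37, a step of -1.15. Hence 2 of 11 expressed genes of the family were past 2-fold upward and 1 downward, against 2.17% and 0.438% of all 12092 genes. Cldn2, a claudin that forms cation pores, read 8.78, 7.84, 10.17 and 10.86, a step of 2.33 that was 0.32 at the probe set of median absolute difference. Matrix proteases included Mmp13, a collagenase, at 1.47 and the urokinase gene Plau at 1.21, the latter with -0.13 at that kind of probe set. Vnn1, a pantetheinase induced by PPAR factors, read 4.84, 6.02, 7.81 and 8.80, a step of 1.79. Dmp1, an acidic matrix phosphoprotein, read 4.94, 4.23, 7.22 and 8.23, a step of 2.99. In Ereg, Nrg1, Cldn2, Vnn1 and Dmp1 the highest array was 4.5 days.

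Iron handling genes and apolipoproteins had members past 2-fold, while both list medians, -0.11 each, took both signs among the settings tried. Hepcidin, the hormone that blocks iron export, is encoded by Hamp, which read 7.11, 8.28, 5.76 and 6.33 on the vehicle, 12-hour, 2.5-day and 4.5-day arrays, a step of -2.52. Its close copy Hamp2 read 11.62, 10.22, 7.72 and 7.31, a step of -2.50 that was -0.92 at the probe set of median absolute difference. The probe sets of the copies may share signal. Cybrd1, a ferric reductase, read 10.12, 10.21, 8.32 and 8.12, a step of -1.89. Tfrc, the transferrin receptor, was the reverse, with 10.97, 9.37, 10.76 and 11.33 and a step of 1.39 that was 0.80 and 0.76 with other readings of its probe sets. Thus 3 of 10 expressed iron genes were lower by 2-fold or more and 1 higher, against 0.438% and 2.17% of all 12092 genes. Apoa1, the main protein of high density lipoprotein, read 13.50, 12.40, 9.99 and 10.90, a step of -2.42, and its 4 probe sets ran from -2.48 to -2.35. Apoa4 differed by -1.36 and Fabp2, a fatty acid carrier of enterocytes, by -1.02, while Apoe differed by 0.78. Apoa1 and Apoa4 also belong to a list of intestinal epithelium. Of its 9 expressed genes 4 were lower by 2-fold or more and 1 higher, against 0.438% and 2.17% of all 12092 genes. Tff3 of that list differed by -1.05 and Lyz1 by 1.04, or 0.94 at the probe set of median absolute difference. The list median, -0.11 over 13 measured, took both signs among the settings tried.

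The other named genes among the 15 lowest had varied roles. Mug1, a protease inhibitor of the macroglobulin family, read 8.91, 7.86, 5.77 and 4.22, a step of -2.10. Clca1, a goblet cell protein, read 12.23, 12.54, 10.56 and 11.23, a step of -1.98, and Fcgbp, a component of mucus, differed by -1.61. Car8, a relative of the carbonic anhydrases, differed by -1.77, B4galnt2, a glycosyltransferase, by -1.61, Neurl3, a ubiquitin ligase, by -1.58 and Plet1, a surface protein of epithelial progenitors, by -1.58. Car8 and B4galnt2 were under 2-fold at the probe set of median absolute difference, at -0.41 and -0.43. Gdf9, a growth factor known from the oocyte, read 7.71 at 12 hours and 5.71 at 2.5 days. Klk1b5, a kallikrein of a family with many close copies, read 2.96, 5.46, 2.74 and 2.64, a step of -2.72 that shares its order with the pancreatic genes. Clones and predicted genes were counted but are not named, and the lowest difference of all outside the lists set apart, -7.47, belonged to a clone.

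**Figure D4:**
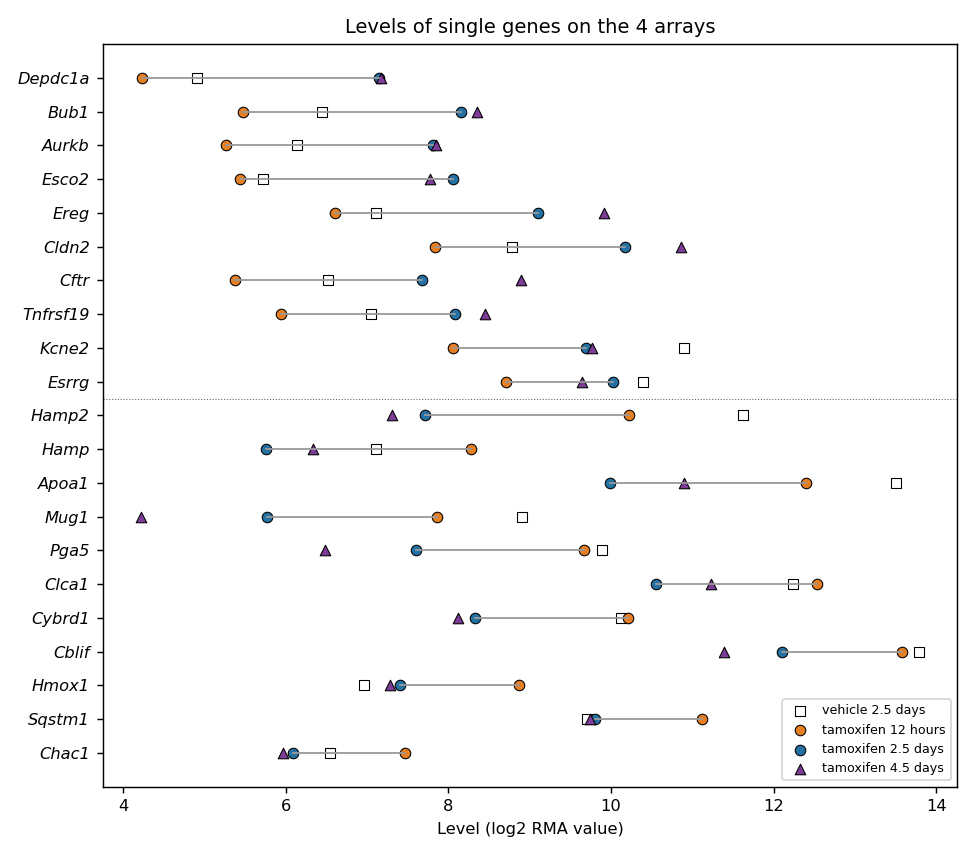
Levels of single genes (log2 RMA value, horizontal axis) on the vehicle, 12-hour, 2.5-day and 4.5-day arrays, 1 pooled array each, with genes higher in the step in the upper block and genes lower in it in the lower block. Bub1 goes from 5.47 at 12 hours to 8.16 at 2.5 days, and Apoa1 from 12.40 to 9.99.

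Other cell types were examined for their markers, since the pools were tissue and not sorted cells. Macrophage genes had a median of 0.59, with none past 2-fold. Of 14 expressed 11 lay above 0, against 59.3% of all 12092 genes. Lyz2, a lysozyme, differed by 0.94, Cd68 by 0.71 and C1qa by 0.71, while Csf1r differed by 0.28 and Ccr2 by -0.33. Of 5 expressed neutrophil genes 3 were higher by 2-fold or more, against 2.17% of all 12092 genes. S100a8, a calprotectin subunit that keratinocytes also make, read 4.56, 5.92, 7.33 and 5.27, a step of 1.41, and its partner S100a9 differed by 1.27, while Camp, a granule peptide, differed by -0.42. The list median over 10 measured members was -0.15 and took both signs among the settings tried. The granule genes Mpo, Elane and Ngp were below the array median on both arrays. Arg1, arginase, read 6.44, 4.06, 6.75 and 5.57, a step of 2.69, and is known from macrophages and from keratinocytes alike. Smooth muscle genes were lower in 10 of 10 cases by little, with a median of -0.31 and Myh11 at -0.42, and 9 of 9 expressed endothelial genes lay below 0, with a median of -0.30 over 10 measured. Fibroblast genes had a median of 0.24, with Col1a1, a collagen chain, just short of 2-fold at 9.24 and 10.24. No gene of these last 3 lists was past 2-fold, and their medians kept their sign under every setting tried. The part of these cells in the other differences was not tested.

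The pair of 4.5 days and vehicle shares no array with the step and was read for the same genes. At 4.5 days 448 of the 12092 genes were above vehicle by 2-fold or more, 3.7%, and 294 below by as much, 2.43%. Of the 263 genes higher in the step, 184 were among the 448, which is 70.0% of the former and 41.1% of the latter, and 245 lay above vehicle at all. The 12-hour array was the lowest of the 4 in 178 of the 263, 67.7%, against 29.0% of the 12092 genes. That count uses the arrays of the step, and choosing genes above their own 12-hour level favours it. Of the 53 genes lower in the step, 30 were below vehicle by 2-fold or more at 4.5 days, 56.6% of them and 10.2% of the 294. Mitosis genes were past 2-fold in this pair in 47 of 54 cases and replication genes in 27 of 42. In the step the replication count was 12. Genes lower in the step but not below vehicle at 4.5 days included Olfm4, at 6.42 at 2.5 days and 8.99 at 4.5 days, and 3 genes in all were above vehicle by 2-fold or more then. Squamous genes did not stand out in this pair as in the step: of 81, 4 were higher at 4.5 days by 2-fold or more and 5 lower. Of 26 pancreatic genes 9 were lower at 4.5 days than in vehicle by as much and none higher, against 2.43% and 3.7% of the 12092 genes.

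**Figure D5:**
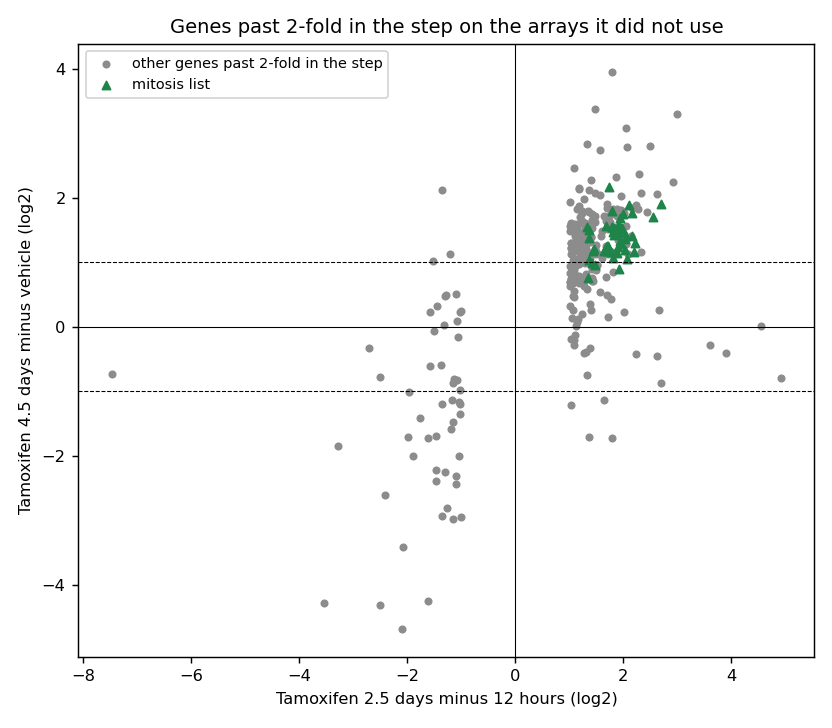
Genes past 2-fold in the step: the difference between 2.5 days and 12 hours (horizontal axis, log2) against the difference between 4.5 days and vehicle (vertical axis, log2), which shares no array with it. Green triangles are mitosis genes and grey points the other genes, and dashed lines mark 2-fold. Of the 263 higher genes 184 lie above the upper dashed line.

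Probe sets of the same gene were also set side by side. The probe set by which a gene was called is among those counted, so it is past 2-fold by selection. No share over genes not called is given, so the counts describe the called genes and are no separate support for them. Of the 263 higher genes 83 had at least 2 probe sets above the array median; in 77 all of these lay above 0 and in 44 all were past 2-fold. Of the 53 lower genes 18 had such probe sets, with all below 0 in 17 and all past 2-fold in 10. For the other called genes only the level of a single bright probe set is behind the value.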

How the data were processed

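RNA of gastric corpus epithelium, pooled from 3 mice per group, was amplified, labelled with biotin and hybridised to 1-colour Affymetrix mouse genome arrays, per the labels' protocols. The authors deposited log2 expression values of 45101 probe sets on 4 arrays, and the submitters' processing notes name RMA and Partek, with no version. No label gives the log base, and base 2 was taken from the range of 2.06 to 14.85. RMA makes the distributions of the arrays equal, which hides any change common to most genes, and it compresses differences near both ends of the scale.

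The platform annotation gave 34945 probe sets exactly 1 symbol, 932 several and 9211 none, with 34741 matched to the current annotation. Array medians lay between 5.30 and 5.34. Differences, medians and counts past 2-fold were computed with Python 3.11.15 and pandas 2.3.3, and the code was tested on simulated data. The brighter array of a comparison had to reach its median over all probe sets. Genes named were, clones and predicted genes passed over, the 15 largest differences in each direction outside the 3 lists set apart, the 6 largest past 2-fold in each of those, up to 4 members of each of 47 other lists, and the best known genes of the corpus cell types. Other members named as counterexamples, defining markers or promoter examples, and genes at the threshold, were chosen after their values were seen. Members and lists were chosen with earlier results of these data known. Alternatives concerned the probe set, the filter, the centring, the threshold and the genes set apart.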

Additional observations from a re-analysis of the deposited data

How the results depend on the processing

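The count of genes at least 2-fold higher, 263, was 153 when the probe set of median absolute difference was read, 174 with the mean of all probe sets and 164 with a filter at the 75th percentile, of which the first held 152 and the second 167 of the 263. It was 858 at 1.5-fold and 98 at 3-fold. The count of lower genes, 53, was 34 after centring on hybridisation controls, 80 with the genes set apart kept, 248 at 1.5-fold and 15 at 3-fold. Mitosis genes had medians of 1.44 under the median-difference probe set, 1.42 with the mean of all probe sets and 1.99 after centring on hybridisation controls, and replication genes 0.65 with the first and 1.03 with the last. The squamous median, 1.05, was 0.57, 0.66 and 1.22 under the same 3 settings and 1.61 over expressed members. The pancreatic median, -2.91, was -2.73 after centring on hybridisation controls and -4.00 over expressed members, and the Reg median -2.24 after that centring. Read from the median-difference probe set, 6 named genes turned sign: Rptn to -0.27, Clspn to -0.088, Aurka to -0.35, Nr4a2 to -0.19, Plau to -0.13 and Dbp to -0.023. Of 94 named genes past 2-fold, 21 were not past it at the median-difference probe set, 17 with the mean of all probe sets and 16 under both. For a gene with a pair of probe sets the median-difference setting takes the smaller difference, so it lowers counts past 2-fold by construction. For Rptn, Clspn, Aurka, Plau and Dbp the value that turned sign came from a probe set below the median on both arrays of the step. Cftr, Cldn2, Hamp2, Ska1, Car8, Sqstm1, Esrrg and Tnfrsf19 fell under 2-fold at such a dim probe set too. The others that did, Nr4a2, B4galnt2, Dut, Hsd17b7, Igha, Kif2c, Lyz1 and Tfrc, had further probe sets above that median. The cause of these shifts was not otherwise tested. Of 50 list medians, 25 kept 1 sign over all settings, among them mitosis, replication, cholesterol, ribosome biogenesis, interferon, pancreatic, Reg and squamous genes, and 25 did not. No paired analysis was possible because each group was 1 array. Precision is limited by the number of arrays, and the spread between mice is unknown.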
